A study of Homo sapiens with 9 samples.

Results

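GLRX5 and 8 further genes of mitochondrial iron-sulfur cluster assembly, ISCU, ISCA1, ISCA2, NFS1, BOLA3, LYRM4, NFU1 and IBA57, were followed by gene identifier in the deposited expression table, where all 9 have a row among 15354. GLRX5 was chosen by its own values in these libraries, namely a lower level after the siRNA labelled B, so its levels are given as a description with no test. The other 8 genes were listed for their function and were tested.

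Iron-sulfur clusters are inorganic cofactors of iron and sulfide that carry electrons and hold the active sites of enzymes in respiration, the citric acid cycle, haem synthesis and DNA repair. In mitochondria a cluster is first built on a scaffold protein from sulfur released by a cysteine desulfurase. The monothiol glutaredoxin GLRX5 then receives the cluster from the scaffold and passes it on, either to acceptor proteins or to late-acting factors that form and deliver the larger iron-sulfur clusters. NFS1, LYRM4 and ISCU belong to the synthesis complex, GLRX5 is the carrier, ISCA1, ISCA2 and IBA57 act in the late step, and NFU1 and BOLA3 in delivery.

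The 9 RNA-seq libraries came from HCT116, a human colorectal carcinoma cell line of epithelial origin, in 3 groups of 3 libraries. The cells were transfected with a control siRNA, the siRNA labelled A or the siRNA labelled B. The sample records give the siRNA at 25 nM, whereas the paper's methods state a higher concentration for siRNA transfection. The siRNAs A and B were designed against the long non-coding RNA SNHG5, and the comparison asks which transcripts change when this RNA is targeted. All groups share this single line, the medium and the transfection reagent. Per the study's methods, the 3 libraries of a group are biological replicates.

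SNHG5 itself was not lower in the libraries labelled as knock-down. Its deposited level was 35.6, 26.3 and 28.6 CPM (reads of a gene scaled to a common library total) in control, 63.9, 50.0 and 61.5 CPM after siRNA A, and 47.8, 47.7 and 45.2 CPM after siRNA B. On the log2 scale it was 1.29 higher after the siRNA labelled A (adjusted p = 1.86e-05, limma) and 0.83 higher after the siRNA labelled B (adjusted p = 5.90e-04, limma). The directions below therefore follow the labels, not a loss of SNHG5 measured in these libraries. By qRT-PCR, a separate measurement, the paper reports a loss of SNHG5 in HCT116 cells with both of its siRNAs. Its figure legend gives that measurement a higher siRNA concentration than the sample records give for these libraries. Library totals ran from 15566530 to 23277549 reads. The 5 epithelial markers EPCAM, CDH1, KRT8, KRT18 and KRT19 were found in every library, from 28.2 CPM for CDH1 up to 1601 CPM for KRT8. The other-cell markers analysed, CD14, COL3A1 and LUM, summed to at most 0.556 CPM, with LUM at 0 in all 9 libraries.

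GLRX5 lies at chr14:95999840-96011061 on the plus strand of GRCh37, and it shares exonic bases with SNHG10 and SCARNA13, both transcribed from the minus strand. The 250 bases before its RefSeq start are shown because GLRX5 had the widest range of the 9 genes and because a head-to-head partner lies within this stretch. They are at chr14:95534800-95535049 on the plus strand of GRCh38.p14, and an exact match placed them once in GRCh37 at chr14:96001137-96001386. Capitals mark matches to CCAAT, the core of the CCAAT box, read on either strand.

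GLRX5, bases before the start: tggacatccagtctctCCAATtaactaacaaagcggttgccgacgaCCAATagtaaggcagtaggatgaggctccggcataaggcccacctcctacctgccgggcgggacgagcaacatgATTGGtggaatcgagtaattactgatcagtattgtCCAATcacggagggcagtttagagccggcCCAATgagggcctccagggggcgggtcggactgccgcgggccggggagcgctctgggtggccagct

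This stretch held 5 matches. Among 35116 RefSeq windows of the same 250 bases, 32% held at least 1, and among the 9 genes GLRX5, ISCA1 and ISCA2 did. The RefSeq starts of GLRX5 and of its partner SNHG10, a long non-coding RNA on the opposite strand, were 178 bases apart.

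NFS1, at chr20:34255974-34287277 on the minus strand of GRCh37, has the same arrangement with ROMO1, which encodes a protein of the inner mitochondrial membrane and has its RefSeq start 53 bases away. The 30 bases next to the NFS1 start are at chr20:35699353-35699382 of GRCh38.p14 and are printed in the direction of NFS1, with the match to CCGGAAG, a binding motif of ETS factors, in capitals as its reverse complement.

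NFS1, bases before the start: cgatgaatcgCTTCCGGagcgccgggcagc

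The 250 bases before the starts held CCGGAAG in 8.52% of all windows and in NFS1 alone among the 9 genes. A further motif, that of NRF1, was held by 5.07% of windows and by ISCU alone. The 3 motifs were searched on both strands and were chosen after the values were seen, and a match is a description of the letters only.

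The other genes lie elsewhere in GRCh37. LYRM4 is at chr6:5103863-5261183, ISCA1 at chr9:88879461-88898017, BOLA3 at chr2:74362527-74375039 and NFU1 at chr2:69623245-69664760, all on the minus strand. ISCU is at chr12:108956358-108963144, ISCA2 at chr14:74960459-74963809 and IBA57 at chr1:228353505-228369958, all on the plus strand. NFS1 and BOLA3 also share exonic bases with genes that have no symbol and were not analysed here.

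GLRX5 had the largest difference of the 9 genes. Its deposited level was 121, 110 and 102 CPM in control, 80.4, 68.9 and 68.3 CPM after siRNA A, and 17.6, 10.5 and 15.4 CPM after siRNA B. The 3 groups did not overlap, and the siRNA B libraries stood far below both others. After scaling by trimmed mean of M-values (TMM), which corrects each total for differences in RNA composition, the mean was 96.8 CPM ± 8.03 (SD, n = 3) in control, 81.9 ± 7.70 after siRNA A and 14.6 ± 3.12 after siRNA B. The siRNA B mean was 15.1% of control and the siRNA A mean 84.5%. On the log2(TMM-scaled CPM + 1) scale used for every fold change here, the difference of GLRX5 from control was -2.66 after siRNA B (SE 0.146) and -0.24 after siRNA A (SE 0.146). In bulk RNA, a lower level in every cell cannot be told apart from loss of the transcript in part of the cells.

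How far GLRX5 was below control after siRNA A depended on the scaling. With library totals alone the difference was -0.605 on the log2 scale, and it ran from -0.31 to -0.17 when 1 library was left out under TMM. With siRNA B it ran from -2.78 to -2.49 when 1 library was left out and was -2.87 with library totals alone.

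**Figure D1:**
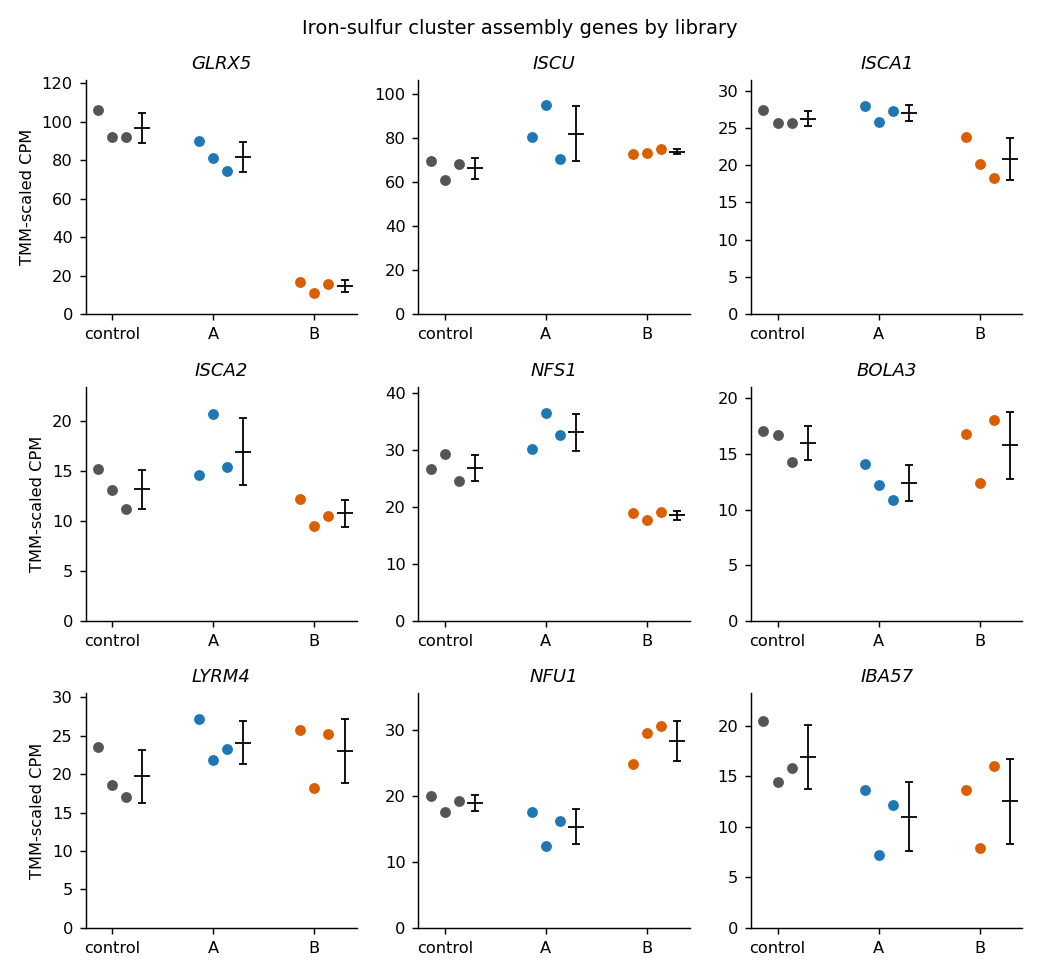
Level of each of the 9 genes in TMM-scaled CPM (vertical axis, from 0) for the control, siRNA A and siRNA B libraries; points are libraries and the bar beside each group is the mean ± SD of 3. GLRX5 lies near 14.6 CPM after siRNA B against 96.8 CPM in control, while ISCU stays between 61.0 and 95.2 CPM in all libraries.

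Levels between genes were compared in control only, per kilobase of merged exons. GLRX5 was highest at 40.6 TMM-scaled CPM per kb ± 3.36 (SD, n = 3), followed by ISCU at 15.0 ± 1.06 and NFU1 at 10.3. ISCA1 stood at 8.07 and BOLA3 at 5.20, with LYRM4, NFS1 and ISCA2 at 4.98, 4.46 and 4.34. IBA57 was lowest at 1.65 TMM-scaled CPM per kb. With the length of the longest transcript in place of merged exons, GLRX5 was still first at 52.0 and IBA57 last at 1.72, but ISCU and NFU1 were nearly equal at 18.0 and 17.9. The same replacement moved LYRM4 to 13.2 and ISCA1 to 13.3, so the middle of the order rests on the length chosen.

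Of the 8 other genes, 2 were higher, none was lower and 6 did not pass the test after siRNA A against control, at an adjusted p under 0.05 from limma over 13893 genes. At an unadjusted p under 0.05 limma gave 2 lower, and edgeR and DESeq2 on the recovered reads gave 0 lower after adjustment. Over all genes 51.4% passed in this comparison, 23.9% higher and 27.6% lower. With siRNA B, 1 of the 8 was higher, 2 were lower and 5 did not pass, where 34% of all genes passed, 15.6% higher and 18.3% lower. In siRNA A against siRNA B, 3 of the 8 were higher in A, 1 was lower and 4 did not pass, against 37.1% of all genes, 17.6% higher and 19.5% lower. The median log2 difference of the 8 was 0.16, -0.15 and 0.11 in these comparisons, beside -0.02, 0.00 and -0.01 over all genes. With library totals alone the splits were 0 higher and 3 lower for siRNA A, 0 and 3 for siRNA B, and 2 and 2 for A against B. Over all genes that scaling gave 9.05% higher and 47% lower for siRNA A, 6.9% and 29.7% for siRNA B, and 10.2% and 27% for A against B. That scaling shifted the median of all genes to -0.34 after siRNA A and -0.18 after siRNA B. The 3 comparisons share libraries with each other.

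**Figure D2:**
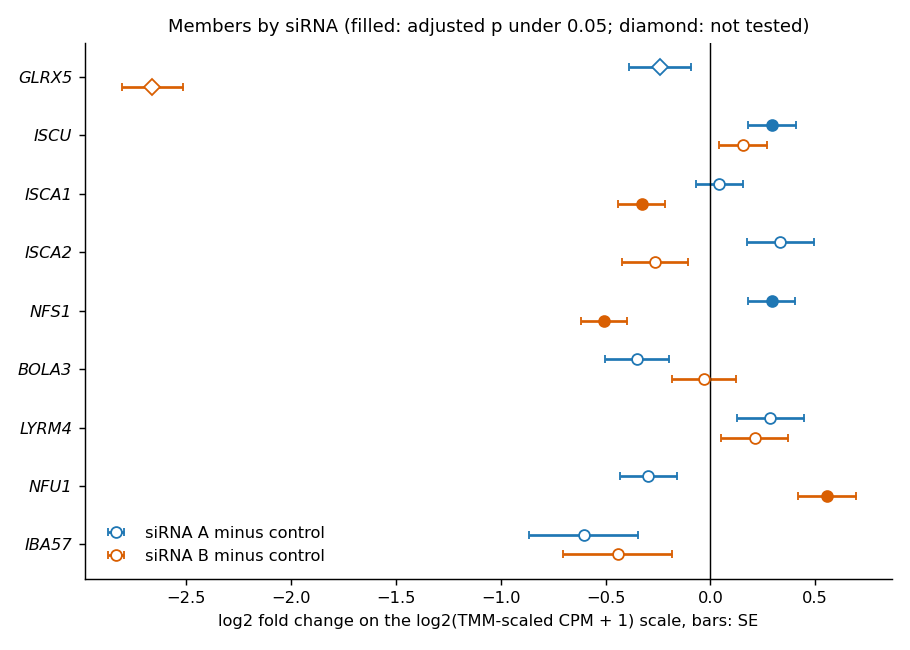
Difference from control in log2(TMM-scaled CPM + 1) for each gene (horizontal axis), with its standard error, for siRNA A and siRNA B. Filled points passed an adjusted p under 0.05 and diamonds mark GLRX5, which was not tested. NFS1 has its siRNA A point at 0.29 and its siRNA B point at -0.51. The filled siRNA A points of ISCU and NFS1 lie on the positive side of 0. With library totals alone, which is not drawn, both differences were negative.

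NFS1, the cysteine desulfurase that releases the sulfur, was lower after siRNA B than in either other group. It was at 30.3, 34.9 and 27.2 CPM in control, 27.0, 31.0 and 29.9 CPM after siRNA A and 19.6, 16.8 and 18.7 CPM after siRNA B. All 3 siRNA B libraries were below the other 6. It fell by 0.51 on the log2 scale after siRNA B (SE 0.111, adjusted p = 0.00456, limma), to 69.1% of the control mean. It was 0.80 higher after siRNA A than after siRNA B (adjusted p = 2.78e-04, limma), and both differences passed under every alternative run. In siRNA A against control it was 0.29 higher (adjusted p = 0.0441, limma). The call did not hold on library totals, at -0.07 (adjusted p = 0.685, limma), nor with only these groups in the fit (adjusted p = 0.0595, limma). Of the 9 fits that each left out a library, 6 lost it as well, at 0.22 to 0.30, namely those without replicate 1 or 3 of control, 2 or 3 of siRNA A, and 1 or 3 of siRNA B.

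ROMO1, which shares exonic bases with NFS1 on the opposite strand, stood above control after siRNA B, where NFS1 stood below it. It was at 21.6, 15.1 and 15.3 CPM in control, 24.7, 24.8 and 15.8 CPM after siRNA A, and 24.2, 20.8 and 25.1 CPM after siRNA B. The libraries of both siRNAs overlapped control as deposited, while after TMM scaling only those of siRNA A did. ROMO1 was 0.65 higher after siRNA A (adjusted p = 0.0142, limma) and 0.63 higher after siRNA B (adjusted p = 0.0263, limma), and neither call held on library totals (adjusted p = 0.176 and 0.0883). Both were also lost without control replicate 2 (0.53 and 0.494) or control replicate 3 (0.595 and 0.559). The siRNA A call was lost without its replicate 1 or 2 and the siRNA B call without its replicate 1 or 3.

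LYRM4, the small partner protein that stabilises the desulfurase, did not pass in any comparison. It was at 26.7, 22.2 and 18.8 CPM in control, 24.3, 18.6 and 21.3 CPM after siRNA A and 26.6, 17.3 and 24.7 CPM after siRNA B, and all groups overlapped. The differences were 0.28 after siRNA A (adjusted p = 0.154, limma) and 0.21 after siRNA B (adjusted p = 0.333, limma).

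ISCU, the scaffold on which the cluster is assembled, was at 79.2, 72.7 and 75.5 CPM in control, 72.0, 80.9 and 64.6 CPM after siRNA A, and 75.5, 69.6 and 73.7 CPM after siRNA B. The groups overlapped as deposited. After TMM scaling it was 0.30 higher after siRNA A (adjusted p = 0.0476, limma), and with library totals alone it stood at -0.07 (adjusted p = 0.624, limma). With siRNA B the difference was 0.15 (adjusted p = 0.325, limma). The siRNA A call was lost whenever 1 library was left out, at 0.19 to 0.33, except siRNA A replicate 3 or siRNA B replicate 2.

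ISCA1, which acts with ISCA2 and IBA57 to form the larger clusters, was at 31.1, 30.6 and 28.3 CPM in control, 25.0, 22.0 and 25.0 CPM after siRNA A and 24.7, 19.2 and 18.0 CPM after siRNA B. The libraries of both siRNAs were below control as deposited, while after TMM scaling those of siRNA A overlapped control. It fell by 0.33 after siRNA B (SE 0.113, adjusted p = 0.0418, limma) and was 0.37 higher after siRNA A than after siRNA B (adjusted p = 0.0234, limma). The first call was lost with only these groups in the fit (adjusted p = 0.0659) and the second with library totals alone, at 0.22 (adjusted p = 0.218). Leaving out any 1 control, replicate 1 or 3 of siRNA A, or replicate 2 or 3 of siRNA B ended the first call (-0.36 to -0.24). Leaving out replicate 1 or 3 of siRNA A, or replicate 3 of siRNA B, ended the second (0.287 to 0.363).

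ISCA2 was at 17.2, 15.6 and 12.3 CPM in control, 13.0, 17.6 and 14.1 CPM after siRNA A and 12.6, 8.996 and 10.3 CPM after siRNA B. The siRNA B libraries were below all of those after siRNA A and overlapped control. ISCA2 was 0.60 higher after siRNA A than after siRNA B (adjusted p = 0.0122, limma). Against control it differed by 0.33 after siRNA A (adjusted p = 0.0998, limma) and -0.26 after siRNA B (adjusted p = 0.222, limma). The gene shares exonic bases with NPC2, a lysosomal cholesterol-binding protein gene on the opposite strand, which was 0.61 higher after siRNA A than after siRNA B (adjusted p = 0.0076, limma). Whether the authors counted by strand is not given in the sources used here, so reads of this pair, of GLRX5 and SNHG10, and of NFS1 and ROMO1 may not be told apart.

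IBA57 had from 95 to 512 reads in a library, and its 95 reads were the lowest count of any of the 9 genes in 1 library. It was at 23.2, 17.2 and 17.5 CPM in control, 12.2, 6.10 and 11.1 CPM after siRNA A and 14.1, 7.47 and 15.7 CPM after siRNA B. All libraries of both siRNAs were below control as deposited, with replicate 2 of each siRNA lowest. The differences of -0.60 after siRNA A (SE 0.259, adjusted p = 0.0693, limma) and -0.44 after siRNA B (adjusted p = 0.209, limma) did not pass. The siRNA A difference passed with library totals alone (-0.95, adjusted p = 0.00839, limma) and with only these groups in the fit (adjusted p = 0.0342, limma). It also passed without siRNA A replicate 1 (-0.77) or siRNA B replicate 2 (-0.60).

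NFU1, which helps deliver clusters to lipoyl synthase and respiratory enzymes, was the only one of the 8 called higher after siRNA B. It was at 22.7, 21.0 and 21.2 CPM in control, 15.6, 10.5 and 14.8 CPM after siRNA A and 25.7, 28.0 and 29.9 CPM after siRNA B. The 3 groups did not overlap, in the order siRNA A, control, siRNA B. It was 0.55 higher after siRNA B than in control (SE 0.138, adjusted p = 0.00939, limma), at 150% of the control mean, and with library totals alone this was 0.35 (adjusted p = 0.0763). In siRNA A against siRNA B it differed by -0.85 (adjusted p = 7.32e-04, limma), a call kept under every alternative run. With siRNA A against control the difference was -0.30 (adjusted p = 0.093, limma), or -0.64 (adjusted p = 0.00221, limma) with library totals alone.

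BOLA3, which works with NFU1 and GLRX5 in delivery, was at 19.4, 19.8 and 15.7 CPM in control, 12.5, 10.3 and 9.95 CPM after siRNA A and 17.4, 11.7 and 17.7 CPM after siRNA B. The siRNA A libraries were below control and those of siRNA B overlapped it. The differences of -0.35 after siRNA A (adjusted p = 0.0743, limma) and -0.03 after siRNA B (adjusted p = 0.89, limma) did not pass. On library totals the siRNA A difference passed (-0.69, adjusted p = 0.00339, limma), as it did with only these groups in the fit (adjusted p = 0.0494, limma) and without siRNA B replicate 2 (adjusted p = 0.0322, limma).

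Same-numbered control and siRNA A libraries deviated together, with correlations of 0.646, 0.411 and 0.13, so the paired comparison was also made. With the replicate block over these 6 libraries, 4 of the 8 genes were higher and 3 lower after siRNA A, where 64.5% of all genes passed, 31.2% higher and 33.3% lower. In that limma fit ISCA2 (0.33, adjusted p = 0.0399) and LYRM4 (0.28, adjusted p = 0.0203) joined ISCU and NFS1 among the higher. IBA57 (-0.60, adjusted p = 0.00104), BOLA3 (-0.35, adjusted p = 0.0102) and NFU1 (-0.30, adjusted p = 0.0243) were lower. This fit was added after the data had been seen. Only ISCA1 of the 8 did not pass in it. With the replicate block over all 9 libraries BOLA3 and IBA57 were lower after siRNA A (adjusted p = 0.0476 and 0.00354, limma), and IBA57 also after siRNA B (adjusted p = 0.0281, limma).

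SNHG10, the opposite-strand partner of GLRX5, did not pass the test after either siRNA. It was at 9.52, 8.28 and 6.03 CPM in control, 5.28, 5.78 and 5.19 CPM after siRNA A and 5.97, 3.86 and 4.90 CPM after siRNA B. Its difference from control was -0.41 after siRNA B (adjusted p = 0.0737, limma) and -0.14 after siRNA A (adjusted p = 0.495, limma). The siRNA A difference passed with library totals alone (-0.46, adjusted p = 0.0405). The siRNA B difference passed there (-0.59, adjusted p = 0.0185), with the replicate block (adjusted p = 0.0436) and without control replicate 3 (-0.56, adjusted p = 0.0322). SCARNA13, a small Cajal body RNA, was at 0.53 to 2.79 CPM and did not reach the level needed for a test. The nearest tested genes on each side were CLMN and C14orf132. CLMN stood at -0.10 after siRNA A and -0.18 after siRNA B (adjusted p = 0.568 and 0.337, limma). C14orf132 fell by 0.95 after siRNA A (adjusted p = 4.77e-04, limma) and stood at -0.09 after siRNA B (adjusted p = 0.683, limma). It had only 6 to 56 reads in a library.

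**Figure D3:**
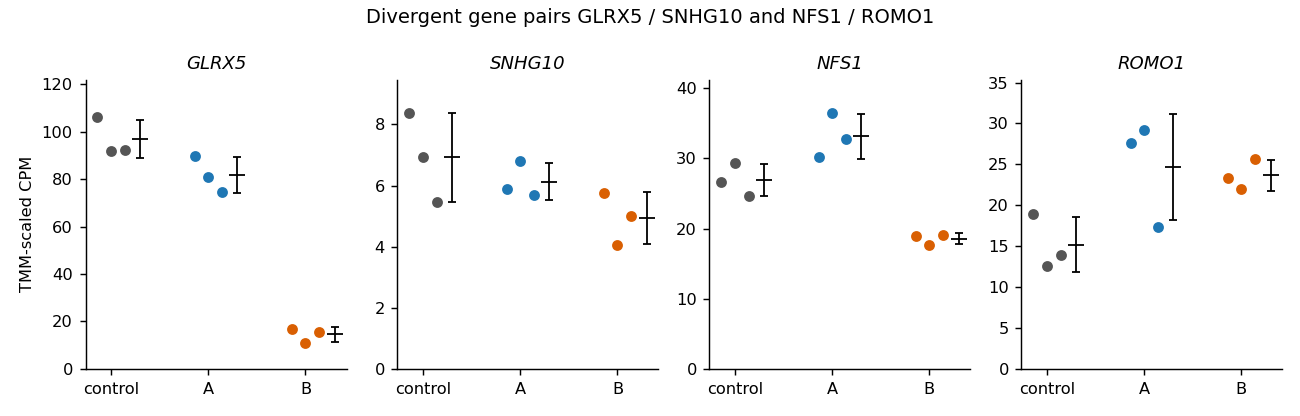
TMM-scaled CPM (vertical axis, from 0) of GLRX5, SNHG10, NFS1 and ROMO1 in each library, with the mean ± SD of 3 beside each group. GLRX5 stood at 15.1% of control after siRNA B and SNHG10 at 71.4%, while NFS1 stood at 69.1% and ROMO1 at 156%.

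Across the 9 libraries the genes with the highest Pearson correlation to GLRX5, among 13892 on the log2 scale, were QARS1 (0.993), GNPAT (0.991), SYNGR2 (0.991), ZNF566 (0.988) and BCL2L1 (0.986). These points share the 3 groups and their libraries, so the values describe a pattern of high control and siRNA A levels and low siRNA B levels. QARS1, glutaminyl-tRNA synthetase, differed from control by -1.11 after siRNA B and -0.13 after siRNA A. GNPAT, an enzyme of ether lipid synthesis in peroxisomes, stood at -1.49 and -0.18. SYNGR2, a vesicle membrane protein, was at -1.41 after siRNA B, BCL2L1, an inhibitor of apoptosis, at -0.78 and ZNF566, a zinc finger gene, at -0.59. Among the other 8 genes, ISCA1 (0.873) and NFS1 (0.865) had the highest correlation with GLRX5 and NFU1 (-0.838) the lowest. ISCA2 stood at 0.668, IBA57 at 0.282, ISCU at -0.057, LYRM4 at -0.089 and BOLA3 at -0.153.

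Among 73 further genes of iron-sulfur and iron biology that could be tested, 20 were higher and 21 lower after siRNA A, 13 higher and 12 lower after siRNA B, and 15 higher and 16 lower in A against B. The shares of all genes that passed were 51.4%, 34% and 37.1% in the same order, and they are the background for the lists that follow. Their median log2 differences were -0.03, -0.07 and 0.09, beside the medians over all genes given above. With library totals alone the splits were 11 higher and 37 lower for siRNA A, 8 and 27 for siRNA B, and 5 were higher in A against B, beside the shares of all genes under that scaling given above.

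Of 12 other mitochondrial assembly factors, 1 was higher and 5 lower after siRNA A, and 3 were higher and 3 lower after siRNA B, beside 51.4% and 34% of all genes in either direction. NDUFAB1, the mitochondrial acyl carrier protein that joins the NFS1 and LYRM4 complex, fell with both, to -1.62 after siRNA A (adjusted p = 2.82e-06, limma) and -1.21 after siRNA B (adjusted p = 3.42e-05, limma). BOLA1, a protein that binds GLRX5, fell by 1.07 after siRNA A (adjusted p = 0.00111, limma). FDXR, the reductase that feeds electrons into synthesis, fell by 0.67 after siRNA A (adjusted p = 3.58e-04, limma) and was 0.51 higher after siRNA B (adjusted p = 0.00385, limma). On library totals the siRNA B call of FDXR did not hold, at 0.3 (adjusted p = 0.0667, limma).

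Of 10 tested genes of cytosolic assembly, 2 were higher and 1 lower after siRNA A, and 1 was lower after siRNA B, against a background of 51.4% and 34%. GLRX3, a cytosolic glutaredoxin, was 0.70 higher (adjusted p = 3.79e-04, limma) and CIAO2A, a targeting factor, 0.46 higher after siRNA A (adjusted p = 0.0137, limma), the latter at 0.10 with library totals alone (adjusted p = 0.603) and at 0.351 without control replicate 3 (adjusted p = 0.07). NDOR1, an electron donor of this pathway, fell by 0.95 after siRNA A (adjusted p = 7.80e-05, limma). CIAPIN1, its partner, fell by 0.26 after siRNA B, near the threshold (adjusted p = 0.0496, limma), and edgeR on the recovered reads gave 0.0516. That call was lost without any 1 of the 9 libraries. In the glutaredoxin family, GLRX stood at -0.35 after siRNA A and -0.41 after siRNA B (adjusted p = 0.0397 and 0.0279, limma), and GLRX2 did not pass with either. Both GLRX calls were lost without control replicate 1 (-0.244 and -0.314).

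Among 17 genes of mitochondrial iron-sulfur and lipoate proteins, 5 were higher and 2 lower after siRNA A, and 1 was higher and 2 lower after siRNA B, where 51.4% and 34% of all genes passed. FECH, the last enzyme of haem synthesis and an iron-sulfur protein, was lower after both siRNAs, at -0.69 and -0.55 (adjusted p = 8.60e-04 and 0.00609, limma). DBT, a lipoate-bearing subunit of branched-chain amino acid breakdown, rose after both siRNAs by 0.75 and 0.71 (adjusted p = 0.00121 and 0.00294, limma). NDUFV2, a complex I subunit, was 0.64 higher after siRNA A (adjusted p = 0.0133, limma), from only 15 to 48 reads in a library. Leaving out replicate 2 of control or replicate 3 of siRNA A ended this call (0.497 and 0.547), and so did library totals (0.433, adjusted p = 0.0617).

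Among 17 cytosolic and nuclear iron-sulfur proteins, 4 were higher and 7 lower after siRNA A, and 4 were higher and 2 lower after siRNA B (51.4% and 34% over all genes). The DNA repair genes NTHL1 and ERCC2 were lower after siRNA B, at -1.44 and -1.06 (adjusted p = 6.77e-05 and 4.09e-05, limma). With siRNA A, ERCC2 fell by 0.39 (adjusted p = 0.00987, limma), and NTHL1 stood at -0.11 (adjusted p = 0.593, limma). PPAT, the first enzyme of purine synthesis, was 1.06 higher after siRNA A and 0.42 higher after siRNA B (adjusted p = 3.89e-05 and 0.0185, limma), the latter ended by leaving out replicate 1 or 3 of control or 1 or 2 of siRNA B (0.32 to 0.41) and on library totals (0.211, adjusted p = 0.222). CISD2, an iron-sulfur protein of the endoplasmic reticulum membrane, was 0.98 and 0.71 higher (adjusted p = 4.78e-05 and 7.30e-04, limma).

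Of 15 genes of iron and haem handling, 8 were higher and 5 lower after siRNA A, and 5 were higher and 3 lower after siRNA B, with 51.4% and 34% called among all genes. HMOX1, haem oxygenase, was 2.04 and 3.47 higher, the ferritin chains FTH1 and FTL 1.41 to 1.64 higher, and ALAS1, the first enzyme of haem synthesis, 0.91 and 0.65 higher (adjusted p from 1.78e-05 to 0.00789, limma).

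**Figure D4:**
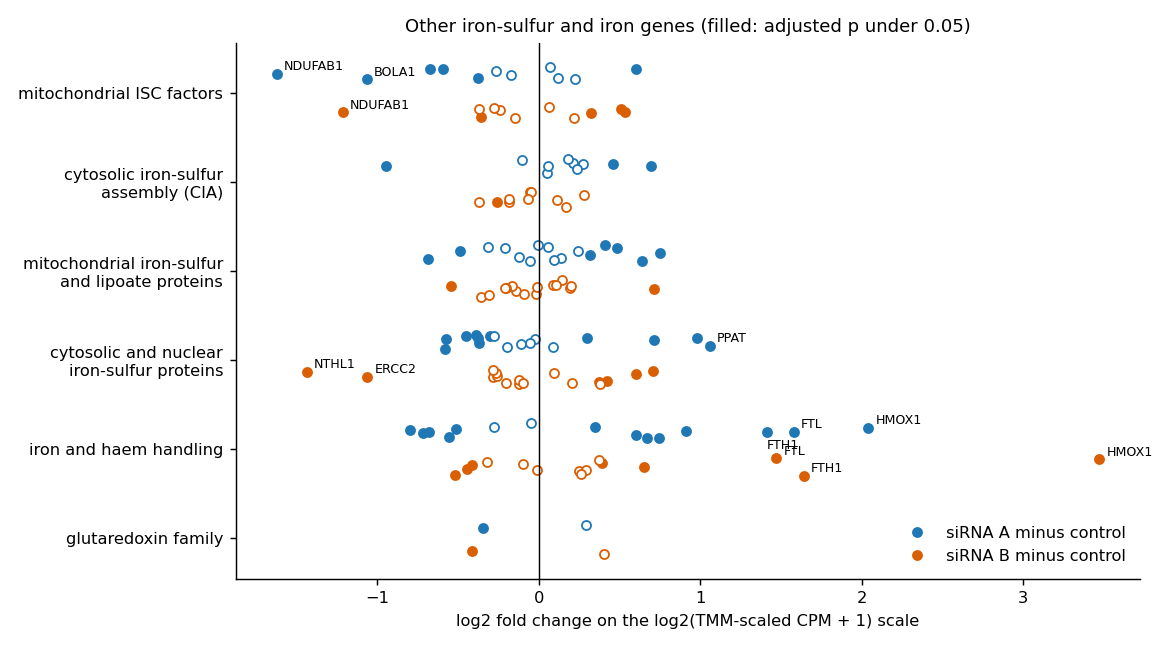
Difference from control in log2(TMM-scaled CPM + 1) (horizontal axis) for the tested genes of each list that are reported here, siRNA A above and siRNA B below in each row; filled points passed an adjusted p under 0.05 and those genes beyond 1 in size are named. Most lists spread to both sides of 0, and NDUFAB1 lies far to the left with both siRNAs, at -1.62 and -1.21.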

How the data were processed

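RNA-seq was measured in 9 HCT116 libraries (single-end reads of 50 bases from poly(A) RNA). The labels' processing notes name TopHat2, HTSeq and GRCh37 (hg19); the strand setting is not given in the sources used here. The authors deposited 1 table of CPM per Ensembl gene. Its values were whole multiples of 1 read (100% within 0.01 read), so reads were recovered for alternatives; deposited rows held 99.9% of each library total.

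Genes at 1 CPM or more in at least 3 libraries (13893) were TMM-scaled (edgeR 4.0.16) and tested on log2(CPM + 1), pseudocount 1, with limma 3.58.1 over all 9 libraries, with Benjamini-Hochberg adjustment at 0.05. A count of 3 reads corresponds to 0.129 to 0.193 CPM. IDs were matched to GENCODE (14871 of 15354), and RefSeq promoter windows of GRCh38.p14 were found for all 9 genes. The fits were also run on simulated reads in which few genes changed and RNA composition was alike between groups. That run cannot judge the choice of scaling.

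The members and lists were chosen with earlier results of these data known. Named were all 9 genes, up to 4 called genes per list with the largest change from control, the genes overlapping or flanking GLRX5, the 5 most alike genes and SNHG5; ROMO1, NPC2, HSPA9 and the motifs were added after values were seen. FDX2, BOLA2, CISD3 and NCOA4 were not analysed here, and some genes that this rule would name are not reported here, though the list counts include them. Alternatives were library totals, median-of-ratios factors, pseudocount 0.1, no filter, only the groups compared, edgeR and DESeq2 1.42.0 on recovered reads, a replicate block and leaving out each library. Replicate numbers come from the sample titles. Control and siRNA A pairs all correlated above 0.1 (0.646, 0.411 and 0.13). Pairs with siRNA B did so for replicates 1 and 2 but not for replicate 3 (-0.386 with control and 0.019 with siRNA A).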

Additional observations from a re-analysis of the deposited data

Results flagged for a closer look

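Of the 8 tested genes and the 73 further genes, 3 passed the test in opposite directions with the 2 siRNAs. Over all genes 51.4% passed with siRNA A, 23.9% higher and 27.6% lower, and 34% with siRNA B, 15.6% higher and 18.3% lower. The share of all genes called in opposite directions was not computed, so whether 3 is many or few cannot be said. The direct difference of the 3 genes between siRNA A and siRNA B was tested in the same limma fit. As they were picked for opposite calls, that test is not independent of the choice. NFS1 was 0.80 higher with siRNA A than with siRNA B (0.799, adjusted p = 2.78e-04, limma), with differences from control of 0.29 after siRNA A and -0.51 after siRNA B. Its siRNA A call against control was lost with library totals alone. FDXR differed by -1.18 (adjusted p = 2.53e-05, limma), being below control with siRNA A and above it with siRNA B. The siRNA B call of FDXR against control did not hold on library totals (0.3, adjusted p = 0.0667, limma). HSPA9, the mitochondrial chaperone that helps move the cluster from ISCU to GLRX5, differed by -1.13 (adjusted p = 2.03e-05, limma). It fell by 0.59 with siRNA A (adjusted p = 4.73e-04, limma) and was 0.53 higher with siRNA B (adjusted p = 0.0017, limma). HSPA9 was at 587 CPM ± 54.8 (SD, n = 3) after TMM scaling in control.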

How the results depend on the processing

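Counts of the 8 tested genes moved by more than 1.5 times only under some alternatives. With library totals alone, 0 were higher and 3 lower with siRNA A, 0 were higher with siRNA B, and 2 were lower in A against B. The shares of all genes under that scaling are given above. With only the groups compared in the fit, 0 were higher and 2 lower with siRNA A, and 1 was lower with siRNA B. Of 13893 genes, that fit called 3364 higher and 3861 lower with siRNA A, and 2433 lower with siRNA B. With the replicate block over all libraries 2 were lower with siRNA A, and with the replicate block over control and siRNA A only, added after the data had been seen, 4 were higher and 3 lower. Over all genes the first block gave 3820 higher and 4273 lower with siRNA A, and the second 4332 and 4628. The main fit gave 3314 and 3831. Same-numbered libraries did not all deviate together with siRNA B, where replicate 3 correlated at -0.386 with control and 0.019 with siRNA A. Replicates 1 and 2 of siRNA B stood at 0.173 and 0.445 with control and at 0.204 and 0.442 with siRNA A. When 1 library was left out, counts ran from 0 to 2 higher and 0 to 2 lower with siRNA A, from 1 to 2 lower with siRNA B, and from 1 to 2 lower in A against B. Over all genes these fits gave 2719 to 3603 higher and 3298 to 4079 lower with siRNA A. They gave 2061 to 2643 lower with siRNA B and 2048 to 2656 lower in A against B. Median-of-ratios factors, pseudocount 0.1, no filter, edgeR and DESeq2 on recovered reads left these counts within 1.5 times. Of the pathway genes, 24 were higher in A against B with the replicate block and 5 with library totals alone. Over all 13893 genes, 2985 were higher and 3244 lower in A against B with the replicate block, and 1415 and 3750 with library totals alone. The main fit gave 2452 and 2703.

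Library totals alone turned the direction of 15 log2 differences. With siRNA A against control these were ISCU (-0.068), ISCA1 (-0.313), ISCA2 (-0.0127), NFS1 (-0.0652), LYRM4 (-0.0675), CIAPIN1 (-0.185) and NPC2 (-0.00735). With siRNA B they were ISCU (-0.055) and CIAO2A (-0.0371). In A against B they were ISCU (-0.013), LYRM4 (-0.0766), DBT (-0.114), FTL (-0.0453), GLRX (-0.0782) and ROMO1 (-0.121). Leaving out 1 library changed the sign within these ranges: BOLA3 with siRNA B from -0.133 to 0.122, BOLA1 with siRNA B from -0.374 to 0.0212, NTHL1 with siRNA A from -0.243 to 0.00128, and in A against B LYRM4 from -0.0805 to 0.161, IBA57 from -0.439 to 0.094, DBT from -0.106 to 0.153 and ROMO1 from -0.104 to 0.257. Of these, ISCU and NFS1 with siRNA A had passed the test under TMM. The cause was not tested.

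Of all log2 differences recomputed, 1669 stayed the same, 83 lost a call, 40 gained one, 27 turned and 1 moved. For tested genes, the same means the same side of the threshold. For GLRX5, which was not tested, it means a shift smaller than the largest SD within a group. The 1 that moved was GLRX5 after siRNA A with library totals alone. SCARNA13, C14orf132 and NDUFV2 had too few reads for small differences to be seen.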
